A study of Mus musculus with 4 samples.

Results

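Narrow single-interval regions outside genes are sites where the MED1 ChIP-seq list held a single interval with no interval abutting it. Abutting intervals, whose start equals the previous end, were joined into regions, and a region entered the set when it consisted of 1 interval under 3.78 kb wide, the 95th percentile of single-interval widths. Its midpoint also had to lie outside every RefSeq protein-coding gene and more than 1 kb from every gene end. The set held 2739 of the 22565 regions on chromosomes 1 to 19 and X (12.1%). It made up 42.2% of the 6493 regions outside genes and 36.2% of all 7557 narrow single-interval regions. The members were thus chosen by width, interval number and gene position, and those values are given below as a description.

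MED1 was immunoprecipitated from RAW 264.7 cells, a mouse macrophage-like line, after 2 h with lipopolysaccharide (LPS, a component of the outer membrane of Gram-negative bacteria; 2 libraries) and from untreated cells (2 libraries). The LPS dose is 10 ng/mL in the sample descriptions but 100 ng/mL in the protocol, and which was used is not known. Both groups were fixed with DSG followed by formaldehyde, and nothing in the labels says whether the 2 libraries of a group came from separate cultures. The deposited list gives positions on mm10 without a height, a name or a library for any interval, so LPS-treated and untreated cells could not be compared and read depth is unknown.

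MED1 is a subunit of Mediator, the coactivator complex that carries signals from transcription factors bound at enhancers and promoters to RNA polymerase II. In macrophages, lineage factors such as PU.1 open distal elements at which signal-dependent factors, among them NF-kB and AP-1, act after LPS. Distal elements can lie far from the gene they serve, so the nearest gene named below is a position and not an assigned target.

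The 8 miRNA hairpins that lay wholly inside the regions are shown first, because they are annotated transcripts within the called sequence itself. They fell in 5 regions, 4 of which are described here. Mir212 and Mir132, a clustered pair that is induced through CREB, shared a region of 1626 bp (chr11:75172729-75174354). Mir210, a miRNA induced by hypoxia, lay in chr7:141221256-141222687, and the epithelial pair Mir141 and Mir200c in chr6:124716506-124719561. The midpoint of the chromosome 6 region, 3056 bp wide, lay 1.09 kb from an end of the protein-coding gene Phb2. That region therefore reaches over the gene end and counts as outside by its midpoint only. Mir7686 and Mir202 lay in chr7:139957182-139958193. The 3p products of Mir132 and Mir212 share a seed. The mature sequences are from RefSeq on GRCm38.p6, written 5′ to 3′, with the seed (bases 2 to 8) in capitals.
mmu-miR-132-3p: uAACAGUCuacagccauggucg
mmu-miR-212-3p: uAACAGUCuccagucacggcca
mmu-miR-210-3p: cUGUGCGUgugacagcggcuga
mmu-miR-141-3p: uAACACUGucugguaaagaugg
mmu-miR-200c-3p: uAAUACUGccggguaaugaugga
mmu-miR-202-5p: uUCCUAUGcauauacuucuuu

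Of 52 non-coding genes on a list of macrophage-related and control transcripts, 20 (38.5%) had a region of the set within 50 kb, among them Mir210, Mir212 and Mir132 described above. The background share was 16.4% over the 1228 miRNA genes and 18.7% over the 12697 lncRNA genes. More genes of the list had a 3-interval region outside genes within 50 kb than had a member of the set. Most had some MED1 region. Neighbouring genes count the same regions, as Mir155 and its host gene Mir155hg do. Mir146, the source of miR-146a and a negative regulator of Toll-like receptor signalling, had 2 regions of the set at 20.8 and 21.2 kb. Mir146b had 1 at 1.83 kb (chr19:46343595-46345803), and the miR-146a and miR-146b 5p products share a seed. Mir155, which is induced by LPS in macrophages, had 1 at 32.5 kb (chr16:84680403-84682876) and no 3-interval region outside genes within 50 kb. Mir125b-1 had 3, at 4.46, 24.9 and 49.8 kb, and likewise no 3-interval region. Mir21a, Mir142 and Mir223, 3 miRNAs abundant in myeloid cells, had 0, though 5, 2 and 2 MED1 regions of any kind lay within 50 kb of them. The sequences of the LPS-related miRNAs follow, with seeds in capitals.
mmu-miR-146a-5p: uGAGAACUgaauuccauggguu
mmu-miR-146b-5p: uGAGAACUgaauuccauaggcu
mmu-miR-155-5p: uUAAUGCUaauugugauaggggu
mmu-miR-125b-5p: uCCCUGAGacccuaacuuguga

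Promoter windows that lay wholly inside the regions gave longer sequence from within the set. The RefSeq table of GRCm38.p6 holds, for 26794 genes, the 250 bases before and 50 after the transcription start. Such a window lay wholly inside 72 of the 2739 regions (2.63%), against 309 of the 3294 3-interval regions outside genes (9.38%), which are wider. Of the 72 windows, 69 belonged to lncRNA genes and 3 to protein-coding genes (F3, Olfr432 and Zfp811), against 64 protein-coding windows among the 309. The regions of these 3 genes were 2633, 3353 and 2846 bp wide. Their midpoints lay 1.13, 1.58 and 1.04 kb from an end of the same gene. These regions therefore reach over the gene end and count as outside by their midpoints only. F3 encodes tissue factor, which starts the extrinsic clotting cascade. The F3 window and the 4 windows that held 3 kinds of motif are printed as examples. They were picked for a known gene or for their number of motifs and are not typical of the set. Only 42 of the 72 windows held any of the motifs searched. The GC content of the F3 window was 70.3%, against a median of 49.7% over the 72 windows. Each reads 5′ to 3′ on the strand of its gene, and capitals mark every match to the motifs defined after the sequences. F3 is chr3:121723287-121723586 (plus strand), Gm38933 chr11:83604766-83605065 (minus strand), Gm19385 chr9:120866496-120866795 (minus strand), Gm39321 chr9:42141831-42142130 (plus strand) and Gm41546 chr17:23967015-23967314 (plus strand).
F3: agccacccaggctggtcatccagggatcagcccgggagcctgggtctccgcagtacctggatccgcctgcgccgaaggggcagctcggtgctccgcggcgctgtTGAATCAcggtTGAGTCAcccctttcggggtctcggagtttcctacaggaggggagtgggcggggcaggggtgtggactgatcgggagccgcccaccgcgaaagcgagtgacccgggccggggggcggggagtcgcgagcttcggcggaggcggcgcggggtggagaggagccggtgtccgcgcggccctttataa
Gm38933: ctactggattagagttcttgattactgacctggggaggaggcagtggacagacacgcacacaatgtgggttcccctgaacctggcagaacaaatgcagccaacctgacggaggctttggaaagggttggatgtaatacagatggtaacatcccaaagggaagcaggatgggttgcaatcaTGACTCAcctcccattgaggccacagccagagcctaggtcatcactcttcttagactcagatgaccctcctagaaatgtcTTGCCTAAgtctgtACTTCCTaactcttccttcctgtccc
Gm19385: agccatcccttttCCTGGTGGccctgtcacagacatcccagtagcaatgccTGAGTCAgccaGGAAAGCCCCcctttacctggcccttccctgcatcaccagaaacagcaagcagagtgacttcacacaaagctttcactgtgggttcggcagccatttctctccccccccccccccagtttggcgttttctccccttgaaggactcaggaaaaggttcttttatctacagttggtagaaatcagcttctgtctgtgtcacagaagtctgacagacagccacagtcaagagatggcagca
Gm39321: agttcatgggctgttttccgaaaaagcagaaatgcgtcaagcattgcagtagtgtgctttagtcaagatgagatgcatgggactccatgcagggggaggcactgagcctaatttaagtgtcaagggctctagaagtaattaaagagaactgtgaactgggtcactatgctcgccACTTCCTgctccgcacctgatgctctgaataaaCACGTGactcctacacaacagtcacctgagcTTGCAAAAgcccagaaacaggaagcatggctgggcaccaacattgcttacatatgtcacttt
Gm41546: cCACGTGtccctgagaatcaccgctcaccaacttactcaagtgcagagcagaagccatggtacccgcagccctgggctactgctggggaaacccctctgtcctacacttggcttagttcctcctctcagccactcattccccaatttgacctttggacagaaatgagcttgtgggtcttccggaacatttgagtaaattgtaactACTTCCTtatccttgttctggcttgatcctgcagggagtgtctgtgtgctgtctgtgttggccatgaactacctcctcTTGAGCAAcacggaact

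The F3 window carried AP-1 letters in 2 places. Gm38933, 11.7 kb from the chemokine gene Ccl6, carried AP-1, C/EBP and PU.1/ETS letters. Gm19385, 65.9 kb from the beta-catenin gene Ctnnb1, carried AP-1, CTCF and NF-kB letters. Gm39321 and Gm41546 each carried C/EBP, E-box and PU.1/ETS letters. Both strands were searched for 8 motifs, none of which contains another: AP-1 TGANTCA, PU.1/ETS AGGAAGT, C/EBP TTGCNNAA, NF-kB (GGG, any 2 bases, TTTCC), IRF (GAAA, any 2 bases, GAAA), E-box CACGTG, CTCF CCACNAGG and CRE TGACGTCA.

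AP-1 letters were present in 18 of the 72 windows, 25% (95% Wilson interval 16.4 to 36.1), against 34 (11%, 7.98 to 15) of the 309 windows in 3-interval regions. The share was 9.5% over all 9520 lncRNA promoters and 7.98% over all 26794 promoters. PU.1/ETS letters were in 18.1% (10.9 to 28.5), against 13.9% in 3-interval regions, 10.1% of lncRNA promoters and 9.61% of all promoters. C/EBP letters were in 15.3%, against 12.3%, 11.9% and 10.8% in the same 3 sets, so these shares lay close together.
E-box letters were in 9 of 72 windows, against 11% in 3-interval regions, 6.04% of lncRNA promoters and 7.3% of all promoters. NF-kB letters were in 3 of the 72 windows (4.17%), against 1.29%, 1.73% and 1.63% in the same 3 sets. CTCF letters were in 4 (5.56%), against 8.09%, 4.85% and 4.96%. IRF letters were in 1 window (1.39%), against 5.18%, 3.67% and 3.51%. CRE letters were in 0 of 72, with an upper Wilson bound of 5.07%, against 2.27%, 1.02% and 1.89%. At least 1 of the 8 motifs was in 42 windows (58.3%), against 48.2%, 40.2% and 39.2%.
Of these shares, that of AP-1 was the only one whose interval lay wholly above the interval in 3-interval regions. These windows are a small and selected share of the set, and these letters are a description, not binding sites. Their median GC content was 49.7%, against 53.3% in 3-interval regions, 48.7% in lncRNA promoters and 52.7% in all promoters. A CpG observed to expected ratio of at least 0.6 was found in 11 windows (15.3%, 8.75 to 25.3), against 37.5% (32.3 to 43.1) in 3-interval regions and 14.7% of lncRNA promoters. Their part in the motif shares was not tested.

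The regions were short. Their median width was 1253 bp, with quartiles of 885.5 and 1828 bp and a range of 44 to 3754 bp, and 117 were under 500 bp. The 3-interval regions outside genes had a median width of 2252 bp. In total the set covered 3.93 Mb, 6.57% of the 59.7 Mb in all regions. The narrowest, 44 bp, was nearest to Gpi1, a glycolytic enzyme gene, and the next, of 57 and 78 bp, to Capza2 and Kcnrg. Just inside the width limit stood regions of 3752 bp near Atp2b1 (chr10:98493876-98497627), 3752 bp near Anxa5 (chr3:36351959-36355710) and 3754 bp near Cep78 (chr19:16007003-16010756). Just outside it were regions of 3782 bp near Fpr2, 3782 bp near Kbtbd11 and 3785 bp near Blm. The last region counted at a gene end lay 999 bp from it, and the nearest region counted as outside lay at 1002 bp.

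The intervals of the median distance from genes overlapped between these regions and 3-interval regions outside genes. Midpoints of the set were a median of 16.7 kb from the nearest gene end (95% interval of the median 15.6 to 18.2), against 15.4 kb (14.5 to 16.3) for 3-interval regions. The median was larger than that of 3-interval regions on 15 of 20 chromosomes. Between 1 and 5 kb from a gene lay 543 (19.8%), against 684 3-interval regions (20.8%). Beyond 100 kb lay 339 (12.4%), against 327 (9.93%), and beyond 1000 kb 13, against 7. The set formed 40.6% (38.0 to 43.3) of all regions outside genes at 1 to 5 kb and 45.3% (41.6 to 49.1) at 100 to 500 kb. Regions in a neighbourhood are not independent, so these intervals cover counting error only.

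The strand of the nearest gene was known for 2150 of the 2739 regions. Of these, 1275 lay upstream of the gene, 59.3% (57.2 to 61.4), against 60.6% (58.7 to 62.5) of 3-interval regions. The nearest gene had a MED1 region of any kind at an end for 1323 regions (48.3%), against 48.3% of 3-interval regions. Over all 21631 protein-coding genes the share was 37.2%. On both measures the intervals of the sets overlap.

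The number of regions per nearest gene was uneven. The set was nearest to 2006 genes, 1529 of them for a single region, while 22 genes were nearest to 5 or more. Zeb2, a zinc-finger repressor required for macrophage identity, was nearest to 16, the largest number, and to 10 3-interval regions. They lay 2.24 kb to 1.54 Mb from the gene (chr2:44983512-45117442), with a median of 545 kb, and were 677 to 3435 bp wide. The 4 nearest were at 2.24, 8.78, 21.7 and 26.7 kb, and 3 of these lay on the side away from the gene Acvr2a. Towards Acvr2a, the stretch of 3.7 Mb without a protein-coding gene held 15 members of the set and 13 3-interval regions.

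Cited2, an inhibitor of HIF1 that binds the p300 and CBP acetyltransferases, was nearest to 13 regions, against 14 3-interval regions. They lay 31.3 kb to 1.10 Mb away, all in the stretch of 2.95 Mb towards Nmbr. Jarid2, an accessory subunit of Polycomb repressive complex 2, was nearest to 10, against 4 3-interval regions, at 15.4 to 410 kb. Dusp4, a nuclear MAP kinase phosphatase, was nearest to 8, against 3, and its nearest one stood at 63.7 kb. None of its 8 therefore fell within the 50 kb used for gene lists.

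Klf4, a zinc-finger factor of monocyte differentiation, was nearest to 7 regions at 123 to 306 kb, against 6 3-interval regions. Myc, the growth regulator, was nearest to 7 at 9.17 to 463 kb, against 9 3-interval regions, and 4 of the set lay within 50 kb of an end of Pvt1, the lncRNA beside it. Prdm1, which encodes the repressor Blimp-1, was nearest to 7 at 1.14 to 174 kb, against 2. Runx1, a haematopoietic factor, was nearest to 6 at 22.0 to 265 kb, against 1. Zfp36l2, a regulator of mRNA decay, Mkln1 and Gm826 also had 6 each, against 5, 4 and 5 3-interval regions.

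Among the 19442 stretches between neighbouring genes, 1863 (9.58%) held a member of the set, and 1036 of these (55.6%) held no 3-interval region. Conversely, 1147 of the 1974 stretches with a 3-interval region (58.1%) held no member of the set. The stretch between Runx1 and Setd4 (757 kb) held 6, against 0 3-interval regions, and that between Spring1 and Med13l (297 kb) held 6, against 1. The stretch between Trib1, which encodes a pseudokinase that controls C/EBP alpha levels, and 4933412E24Rik (358 kb) held 8, against 5. Density over the whole length of a stretch was lowest in the longest ones in both sets. It was 4.29 regions per Mb in stretches under 10 kb, against 4.54 for 3-interval regions, and 4.43 at 10 to 50 kb, against 6.06. Beyond 1000 kb it was 0.325 per Mb, against 0.385. In stretches of 500 to 1000 kb the set was the denser one, at 0.687 per Mb, against 0.626. The rule bars midpoints within 1 kb of a gene end, so stretches under 10 kb cannot be ranked against longer ones here.

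The regions had MED1 neighbours less often than 3-interval regions. Another MED1 region lay within 12500 bp of 1709 of the 2739, 62.4% (60.6 to 64.2), against 2344 of 3294, 71.2% (69.6 to 72.7). The difference was -8.76 percentage points (-11.1 to -6.38), an interval that treats regions as independent and is therefore too narrow. It had the same sign on 17 of 20 chromosomes, the exceptions being 12, 14 and X. Among regions of 1000 to 2000 bp in both sets (1274 against 1163) the share was 61.3%, against 66.1% for 3-interval regions, a difference of -4.82 points (-8.63 to -1.01). Narrow single-interval regions inside genes stood at 62.0%, close to the set.

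The median gap to the next region was 7283 bp, against 5323 bp for 3-interval regions. The next region was a narrow single-interval one for 35.4%, against 31.9%, while such regions were 33.5% of all. It was a region at a gene end for 25.4%, against 21.5%. The next region was another member of the set for 702 (25.6%), while members were 12.1% of all regions and 42.2% of those outside genes.

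**Figure D1:**
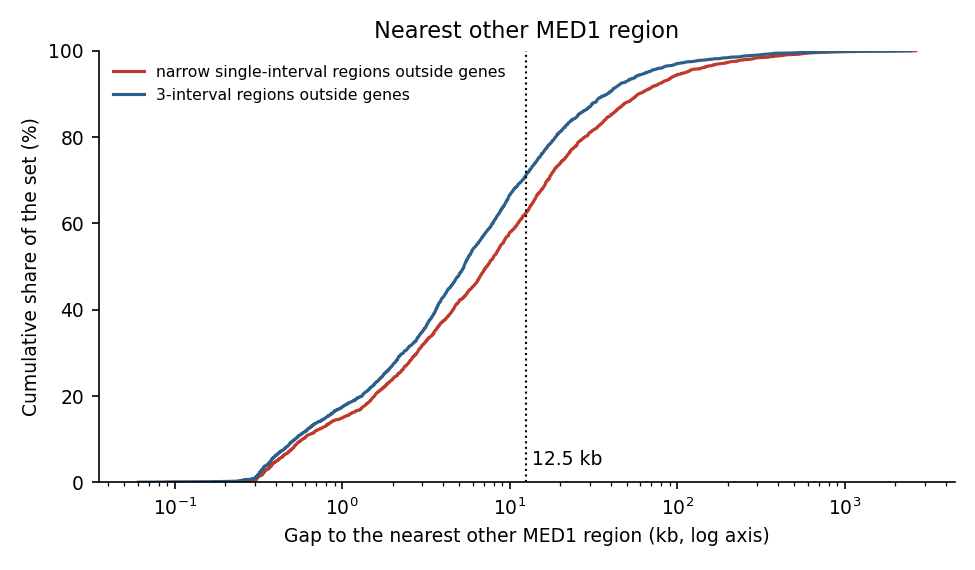
Cumulative share of each set (vertical axis, %) by gap to the nearest other MED1 region (horizontal axis, kb, log scale), for narrow single-interval regions and 3-interval regions outside genes. At the dotted line, 12500 bp, the curves stand at 62.4% and 71.2%.

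When regions at most 12500 bp apart were stitched, 339 of the set (12.4%, 11.2 to 13.7) fell in the 678 clusters with the largest covered length, the top 5%. The share was 21.1% (19.7 to 22.5) for 3-interval regions and 14.4% for all regions. Covered length includes each region's own width, and 3-interval regions are wider. Alone in their cluster were 1030 (37.6%), against 28.8% of 3-interval regions and 38.9% of all regions.

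Most members stood apart from each other: 2073 had no other member within 12500 bp. The longest runs had 5. Between Runx3, a haematopoietic factor, and Clic4, 5 regions of 866 to 1040 bp spanned 28.1 kb (chr4:135178732-135206876) with no region of another kind between them. The other run of 5 spanned 17.0 kb between Ndst1 and Rps14 (chr18:60750420-60767467). A run of 4 spanned 18.4 kb and ended 3.58 kb from Ifngr1, which encodes the ligand-binding chain of the interferon gamma receptor (chr10:19569972-19588367). Runs of 4 also stood near Zfp36l2, Sec14l1, Serp1 and Tbc1d1.

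The most remote region lay 1.63 Mb from Pabpc4l (chr3:48080058-48081433), and the nearest other MED1 region was 2320 kb away. A pair of further remote regions, of 611 and 462 bp, lay 1.41 Mb from Cntnap5b and 0.412 kb from each other. Another stood 1.27 Mb from Tenm2 (chr11:38508924-38510767). The list gives no height, so a background call and a weakly occupied site cannot be told apart here.

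Across chromosomes the set made up 37.5% (chromosome 12) to 50.9% (X, 54 regions, 41.6 to 60.3) of the regions outside genes, with a median of 42.2%. It ranged from 0.432 regions per Mb between genes on X to 3.02 on chromosome 11.

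Larger shares of LPS response and macrophage genes than of all genes had these regions nearby. A gene was counted when a region of the set lay within 50 kb of either end, which held for 3821 of 21631 protein-coding genes (17.7%; 5.27% within 10 kb and 27.7% within 100 kb). A 3-interval region outside genes lay within 50 kb of 20.2% of genes. Any MED1 region lay within 50 kb of 71.1% of genes, and among those the share with a member of the set was 24.9%. In the 4 macrophage and LPS lists, 94.3% to 100% of the genes had some MED1 region within 50 kb, and so did 95.7% to 100% of the dehydrogenase, NF-kB and MAPK, histone acetylation and housekeeping lists. The shares were lowest for neuronal genes (37.5%) and developmental transcription factor genes (33.3%). The lists also differ in the number of MED1 regions nearby. Members of the set were 34 of the 214 distinct regions within 50 kb of primary LPS response genes and 17 of 127 for secondary response. They were 29 of 154 for macrophage transcription factors and 28 of 226 for surface and effector genes. For developmental factors they were 4 of 19 and for neuronal genes 6 of 34, while over all regions they were 12.1%. They were 11 of 139 for housekeeping genes and 16 of 202 for the NF-kB and MAPK list. For the histone acetylation list they were 8 of 127 and for the dehydrogenase list 7 of 86. This fraction was larger for developmental factors than for any of the 4 macrophage and LPS lists, so it does not set those lists apart. No test was made of these lists, and nearby genes share regions.

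Of 40 primary LPS response genes, 27 had a member of the set (67.5%, 52.0 to 79.9), and 34 had a 3-interval region outside genes (85.0%). Ccl2, which encodes a monocyte chemoattractant, had 4 at 1.40, 2.54, 19.5 and 38.5 kb, against 2 3-interval regions, and its neighbour Ccl7 counts the same 4. Ccl3, a macrophage inflammatory protein gene, had 3 at 3.21, 43.1 and 46.8 kb, and the one at 43.1 kb holds the Gm38933 window printed above. Ccl4, which overlaps Ccl3 in the annotation, counts the same 3. Il1b had 2, at 3.60 and 26.2 kb. Tnfaip3, the NF-kB inhibitor A20, had 2, at 1.81 and 12.1 kb. Tnf had 1, of 1127 bp at 16.4 kb, nearer to Lst1.

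Of 35 secondary and interferon response genes, 14 had a member of the set (40%, 25.6 to 56.4), while 10 had a 3-interval region outside genes (28.6%). In 9 of the 14 there was no 3-interval region, as in 2064 of the 3821 genes at large. The same held for 3 of the 27 primary response genes, 4 of the 15 transcription factor genes and 7 of the 23 surface and effector genes with a member of the set. Rsad2, the antiviral enzyme viperin, and Cmpk2, a mitochondrial nucleotide kinase, adjoin each other and share 4 regions with no 3-interval region within 50 kb. Those regions measured 1392, 3367, 3585 and 320 bp and lay 3.50, 2.88, 8.22 and 11.6 kb from Rsad2 (chr12:26438545-26468260). Acod1, the itaconate-producing enzyme, had 2 at 9.11 and 26.9 kb. Irf1 had 2 at 21.5 and 32.8 kb, against 4 3-interval regions. Ifnb1 had 1 at 9.84 kb and Nos2, inducible nitric oxide synthase, 1 at 4.04 kb.

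Of 31 macrophage transcription factor genes, 15 had a member of the set (48.4%, 32.0 to 65.2), and 18 a 3-interval region (58.1%). Runx3 had 5, the run described above, against 0 3-interval regions, and those at 25.7 and 28.4 kb were nearer to Clic4. Zeb2 had 4, Runx1 3 and Nr4a1, an immediate-early nuclear receptor, 3.
Of 38 macrophage surface and effector genes, 23 had a member of the set (60.5%, 44.7 to 74.4), and 23 a 3-interval region (60.5%). Fcgr3, a low-affinity Fc gamma receptor, had 4, and 3 of these 4 contained tRNA genes (2, 1 and 4 genes). Fcgr4 had 3, of which 2 were among those tRNA regions. The lysozyme genes Lyz1 and Lyz2 shared 3, against 0 3-interval regions.

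The pathway and housekeeping lists had lower shares than the 4 macrophage and LPS lists, though above the 17.7% over all genes. The interval of the housekeeping share covers the 40% of the secondary response list. The NF-kB and MAPK pathway list had 9 of 39 genes with a member (23.1%), among them Irak3, a brake on Toll-like receptor signalling, with 3, and Tnip1 with 3. In that list 16 genes (41.0%) had a 3-interval region outside genes. The dehydrogenase and acetyl-CoA list had 5 of 23 with a member (21.7%), while 9 had a 3-interval region (39.1%). Within 50 kb, 2 members of the set each lay near Pdhx, a structural subunit of the pyruvate dehydrogenase complex, and Bckdha, a branched-chain ketoacid dehydrogenase subunit. Those of Bckdha, at 22.9 and 48.1 kb, were nearer to Erich4 and Tgfb1. Neither Pdhx nor Bckdha had a 3-interval region outside genes within 50 kb. The histone acetylation list had 6 of 27 (22.2%) and the housekeeping list 8 of 24 (33.3%). Hdac1 had 3, at 12.2, 15.9 and 42.4 kb, each nearer to another gene.

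Marker lists of other cell types ranged widely. Neutrophil genes stood at 44.4% (8 of 18, 24.6 to 66.3), T cell genes at 28.6%, B cell genes at 26.3%, hepatocyte genes at 20% (4 of 20), neuronal genes at 3 of 24 and skeletal muscle genes at 10.0%. Developmental transcription factors had the lowest share, 8.33% (3 of 36, 2.87 to 21.8). Syn2, a synaptic vesicle gene, had 3 at 9.79, 24.8 and 33.5 kb, and the last is also counted for Pparg, a macrophage transcription factor gene. The B cell gene Fcrla had 4, next to the Fc receptor genes on chromosome 1, and Lck counts the same 3 as Hdac1. Over all genes, Ifnar1, a chain of the type I interferon receptor, and Pcbp1, an RNA-binding protein gene, had the most, 6 each, against 5 and 3 3-interval regions.

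A smaller share of these regions than of 3-interval regions lay at non-coding genes. A midpoint in, or within 1 kb of an end of, a non-coding gene was found for 683 (24.9%, 23.4 to 26.6), against 961 3-interval regions (29.2%, 27.6 to 30.8). At an end of an lncRNA gene stood 214 (7.81%, 6.87 to 8.88), against 343 (10.4%, 9.42 to 11.5). Small nuclear RNA gene ends had 5 (0.183%, 0.078 to 0.427), against 22 (0.668%, 0.441 to 1.01). Transfer RNA gene ends had 21 (0.767%, 0.502 to 1.17), against 39 (1.18%, 0.867 to 1.61), and the intervals of these shares overlap. Pseudogenes went the other way. A midpoint in, or within 1 kb of an end of, a pseudogene was found for 53 (1.94%, 1.48 to 2.52). The count for 3-interval regions was 56 (1.7%, 1.31 to 2.2), and these intervals overlap as well.

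The 5 regions at miRNA genes (0.183%, against 0.182% of 3-interval regions) included that of Mir6361, 2059 bp wide, on chromosome 18 and 14.0 kb from Wdr36.

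Of the 408 annotated tRNA genes, 35 (8.58%) had the midpoint of such a region within 1 kb of an end, and 31 of these lay wholly inside the region. Transfer RNA genes are transcribed by RNA polymerase III and exist in near-identical copies. Of the 21 regions, 8 stood on chromosome 13 and 3 each on chromosomes 1 and 11. These counts were not set beside the spread of all 408 tRNA genes over chromosomes. The 3 on chromosome 1 were those near Fcgr3: chr1:171037897-171038929, chr1:171043547-171045700 and chr1:171101569-171103859. Mediator is known for its role with RNA polymerase II, and whether these calls come from the tRNA genes or from neighbouring sequence was not tested.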

How the data were processed

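MED1 ChIP-seq was analysed from 4 libraries of RAW 264.7 cells (2 LPS, 2 untreated). Per the submitters' processing notes, Bowtie, SAMtools and MACS2 2.2.6 were used on mm10. Peak settings, any control library and any pooling of libraries: not given in the sources used here. Deposited were the positions (no other value) of 53764 intervals, and the score the authors deposited is 0 in every line. No comparison of conditions was made.

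Abutting intervals were joined, giving 22565 regions from 53747 intervals on chromosomes 1 to 19 and X. The 13 Y and 4 mitochondrial intervals were left out. Genes (21631 protein-coding), promoters and miRNAs came from RefSeq GRCm38.p6, the assembly mm10 names. Strand came from the promoter table, which covers 17274 protein-coding genes. Coordinates are 1-based. The motif search planned for region centres was replaced by promoter windows, because no genome sequence was used here. Percentages carry 95% Wilson intervals (difference of shares: normal approximation), covering counting error only.

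The members, the 15 gene lists and the non-coding list were chosen with earlier results of these data known. Genes were named by rule: up to 4 per list with the most members, the 10 nearest to the most members with ties, those of the longest runs and most remote members, those at the width limit, and miRNA genes within 1 kb. Other names, and the printed promoter windows, were chosen after their values were seen. Alternatives changed the gene-end window, the joining, width, distance and stitching limits and the annotation. The joining and classification were tested on simulated data. The software was scipy 1.17.1, pandas 2.3.3, numpy 2.4.6 and, for plots, matplotlib 3.10.9, under Python 3.11.15.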

Additional observations from a re-analysis of the deposited data

How the results depend on the processing

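The set numbered 2739 regions as reported, 2642 when any overlap decided the gene class, 2520 with a gene-end window of 2.5 kb, 2890 with no width limit, 2527 when gaps up to 500 bp were joined and 2056 outside all annotated genes. The median distance from a gene was 16.1 kb edge to edge, 17.1 kb after joining and 19.7 kb with the 2.5 kb window. The share with a MED1 neighbour was 42.1% within 5 kb, 78.1% within 25 kb, 53.7% without regions at gene ends and 59.2% after joining. It was 46.4% without single-interval regions as neighbours, an alternative chosen after seeing the data. The difference from 3-interval regions was -8.9 points without X and -4.82 at 1000 to 2000 bp. The share in the largest clusters was 19.9% for the top 10%, 7.81% with 5 kb stitching and 17.0% ranked by number of regions. At non-coding genes it was 29.9% within 2.5 kb. Of all genes, 5.27% had a member of the set within 10 kb and 27.7% within 100 kb. At 10 kb the shares were 27.5% for primary LPS response, 22.9% for secondary response, 16.1% for macrophage transcription factors and 26.3% for surface and effector genes, and at 100 kb 70.0%, 54.3%, 54.8% and 76.3%. The other 11 lists had 0 to 16.7% at 10 kb and 19.4 to 55.6% at 100 kb. No paired analysis was possible because the list carries no value per library, and leaving out a library could not be run for the same reason. Motifs in whole regions were not run.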

Other observations

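Less than 500 bp from another MED1 region lay 210 members of the set (7.67%), and 34 pairs of members stood that close to each other. Leaving such regions out, an alternative chosen after seeing the data, left 2529. On chromosome Y the list held 5 regions, 1 of them a single interval, which were not analysed further.

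The list holds positions only. Depth is unknown, no interval can be given to LPS-treated or untreated cells, and no value shows the spread between libraries. Distances run to protein-coding gene ends, so the nearest gene is not shown to be a target. Neighbouring genes share regions, and 34 regions make up the 42 pairs of region and gene in the primary LPS response list. Motif shares rest on 72 promoter windows.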
